A study of Mus musculus with 30 samples.

Results

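The 40 genes described here belong to the integrated stress response and to the serine and one-carbon pathways that it controls. They were taken by symbol from a list of names that was drawn up with earlier results of these data known, and each of the 40 symbols matched 1 of the 43629 gene IDs in the count tables. Messenger RNA had been sequenced from macrophages grown from bone marrow of C57BL/6 mice in 20 ng/mL CSF-1, the growth factor on which these cells depend, and taken on day 7 of culture. All cells stayed in CSF-1 during stimulation, and the labels give neither the length of stimulation nor the age or sex of the mice. Wild type macrophages were kept without stimulus, with 20 ng/mL IL-4 alone, or with IL-4 and either 10 µM prostaglandin E2 (PGE2) or 10 nM valinomycin. IL-4 is the cytokine that drives alternative activation, PGE2 is a lipid mediator that raises cyclic AMP, and valinomycin is an ionophore that carries potassium across membranes and lowers the membrane potential of mitochondria. In a separate experiment, macrophages carried a lentiviral short hairpin RNA (shRNA), either a control or one against Etv1, an ETS family transcription factor, and received no stimulus, IL-4, or IL-4 with PGE2. The labels name 1 genotype for each hairpin and do not say how many hairpin sequences or how many mice stand behind it. There were 10 groups of 3 libraries, and the p-values measure the spread between these libraries only, which may be technical.

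The wild type libraries held 10514496 to 13414293 counts and the shRNA libraries 6924973 to 30473040. Levels are given in CPM, the usual counts relative to a scaled library total, with the scaling done within each experiment, and are compared between libraries of the same experiment. All 8 macrophage markers on a list of 8 were detected in every group, and their summed level was 14361 to 19083 CPM in wild type libraries. It was 15895 to 21465 CPM with the control hairpin and 8902 to 10386 CPM with the Etv1 hairpin, so that the hairpin groups did not overlap. In such bulk samples, fewer cells of a type and less RNA per cell cannot be told apart. Neutrophil markers summed to 175 to 283 CPM in wild type libraries and to 0 to 2.46 CPM in shRNA libraries. The summed level of 7 stromal and endothelial markers moved with stimulation. It was 3.59 to 5.03 CPM in unstimulated wild type libraries, 65.8 to 81.5 with IL-4, 159 to 213 with PGE2 and 57.7 to 66.5 with valinomycin, with Lum at 0 in every library. Only 3 of the 7 had enough counts to be tested in wild type. Of these 3, 1 was called higher with IL-4 against no stimulus, 2 with PGE2 and 0 with valinomycin added to IL-4, and 0 lower. The sum thus rests on few genes. In the same comparisons 24.0%, 29.9% and 19.4% of all genes were called higher and 22.4%, 29.5% and 18.9% lower. In shRNA libraries that list reached at most 56.2 CPM. Lists for dendritic cells, lymphocytes, mast cells or basophils, and erythroid cells or megakaryocytes summed to at most 5.41 CPM in any library. The 2 mitochondrial ribosomal RNAs took 0.751 to 0.846% of counts in the valinomycin libraries and 0.019 to 0.044% in the other wild type libraries. The part of these shifts in the results below was not tested.

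When cells run short of amino acids, accumulate unfolded protein or lose mitochondrial function, kinases phosphorylate the initiation factor eIF2alpha. Bulk protein synthesis then slows while the messenger RNA of the transcription factor ATF4 is translated more, and ATF4, often paired with a C/EBP family protein, switches on genes for amino acid uptake, amino acid synthesis and tRNA charging. Serine synthesis starts from a glycolytic intermediate through Phgdh, Psat1 and Psph, and mitochondrial enzymes such as Shmt2 and Mthfd2 then pass the one-carbon unit of serine into folate metabolism. Damage to mitochondria is a known trigger of this response, and several of its secreted products, among them GDF15 and FGF21, act as signals between tissues.

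ATF4 with a C/EBP partner binds a composite element whose core can be written TGATGNAA. This motif was searched on both strands in RefSeq promoters of 300 bases, from 250 before to 50 after the transcription start. RefSeq entries on GRCm38.p6 existed for 33 of the 40 genes, and 13 of these 33 genes (39.4%) held the motif: Gars, Pycr1, Vldlr, Yars, Slc7a11, Aars, Asns, Pck2, Herpud1, Nupr1, Trib3, Chac1 and Fgf21. Of all 27025 genes in the table, 1219 (4.51%) held it in some promoter. Since these genes are listed for their link to ATF4, the difference is a description, and a match is not evidence of a bound site. The 6 motif holders with the largest change under valinomycin were chosen for that change, so that their common rise there is given by the choice. Their sequences are shown. Each is written 5′ to 3′ on the strand of the gene, with the motif in capitals, which reads TTNCATCA where it lies on the opposite strand. Trib3 is cut to 30 bases because its motif lies 14 bases after the start, while those of the others lie 23 to 193 bases before it.
Chac1, chr2:119350992-119351241, plus strand: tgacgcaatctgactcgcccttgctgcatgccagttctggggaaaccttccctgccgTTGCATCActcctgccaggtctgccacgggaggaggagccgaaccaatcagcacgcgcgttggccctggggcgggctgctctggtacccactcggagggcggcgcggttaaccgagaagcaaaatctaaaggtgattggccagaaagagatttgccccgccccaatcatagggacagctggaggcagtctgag
Trib3, chr2:152344028-152344057, minus strand: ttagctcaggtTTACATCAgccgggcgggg
Nupr1, chr7:126625471-126625720, minus strand: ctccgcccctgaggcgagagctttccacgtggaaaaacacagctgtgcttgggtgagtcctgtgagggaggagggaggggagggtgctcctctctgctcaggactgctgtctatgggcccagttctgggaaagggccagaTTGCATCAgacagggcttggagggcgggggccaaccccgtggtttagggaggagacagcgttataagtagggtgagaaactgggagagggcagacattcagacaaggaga
Herpud1, chr8:94386179-94386428, plus strand: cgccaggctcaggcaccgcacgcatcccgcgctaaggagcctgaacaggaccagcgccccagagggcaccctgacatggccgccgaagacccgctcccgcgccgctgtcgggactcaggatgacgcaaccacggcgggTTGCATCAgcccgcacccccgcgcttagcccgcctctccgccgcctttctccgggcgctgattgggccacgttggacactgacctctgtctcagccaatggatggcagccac
Pck2, chr14:55540016-55540265, plus strand: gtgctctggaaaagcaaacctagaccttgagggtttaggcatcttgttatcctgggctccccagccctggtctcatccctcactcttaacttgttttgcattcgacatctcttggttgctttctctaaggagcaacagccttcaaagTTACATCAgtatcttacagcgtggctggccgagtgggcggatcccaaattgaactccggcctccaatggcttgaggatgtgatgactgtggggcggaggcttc
Asns, chr6:7693210-7693459, minus strand: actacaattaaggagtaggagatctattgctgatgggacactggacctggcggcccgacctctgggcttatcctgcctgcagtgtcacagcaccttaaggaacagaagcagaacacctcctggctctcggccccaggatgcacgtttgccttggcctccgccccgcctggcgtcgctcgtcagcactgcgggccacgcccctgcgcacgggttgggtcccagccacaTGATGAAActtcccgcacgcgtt

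In each experiment 37 of the 40 genes had enough counts to be tested. Fgf21 had no count in any library, and Stc2 had 39 counts over the wild type and 12 over the shRNA libraries. Cth, with 17 counts in all wild type libraries, was tested with shRNA only, and Slc7a3, with 111 counts over the shRNA libraries, in wild type only. A gene was called when its adjusted p, from edgeR's quasi-likelihood test with Benjamini-Hochberg adjustment over all genes tested, was under 0.05. Fold changes are log2 values with their standard error. The compared groups of a called gene did not overlap, except for Ddit4 with valinomycin, Xpot between PGE2 and valinomycin, Nupr1 with PGE2 and the control hairpin, Chac1 with PGE2 and the Etv1 hairpin, and Herpud1 and Phgdh between the hairpins under PGE2.

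**Figure D1:**
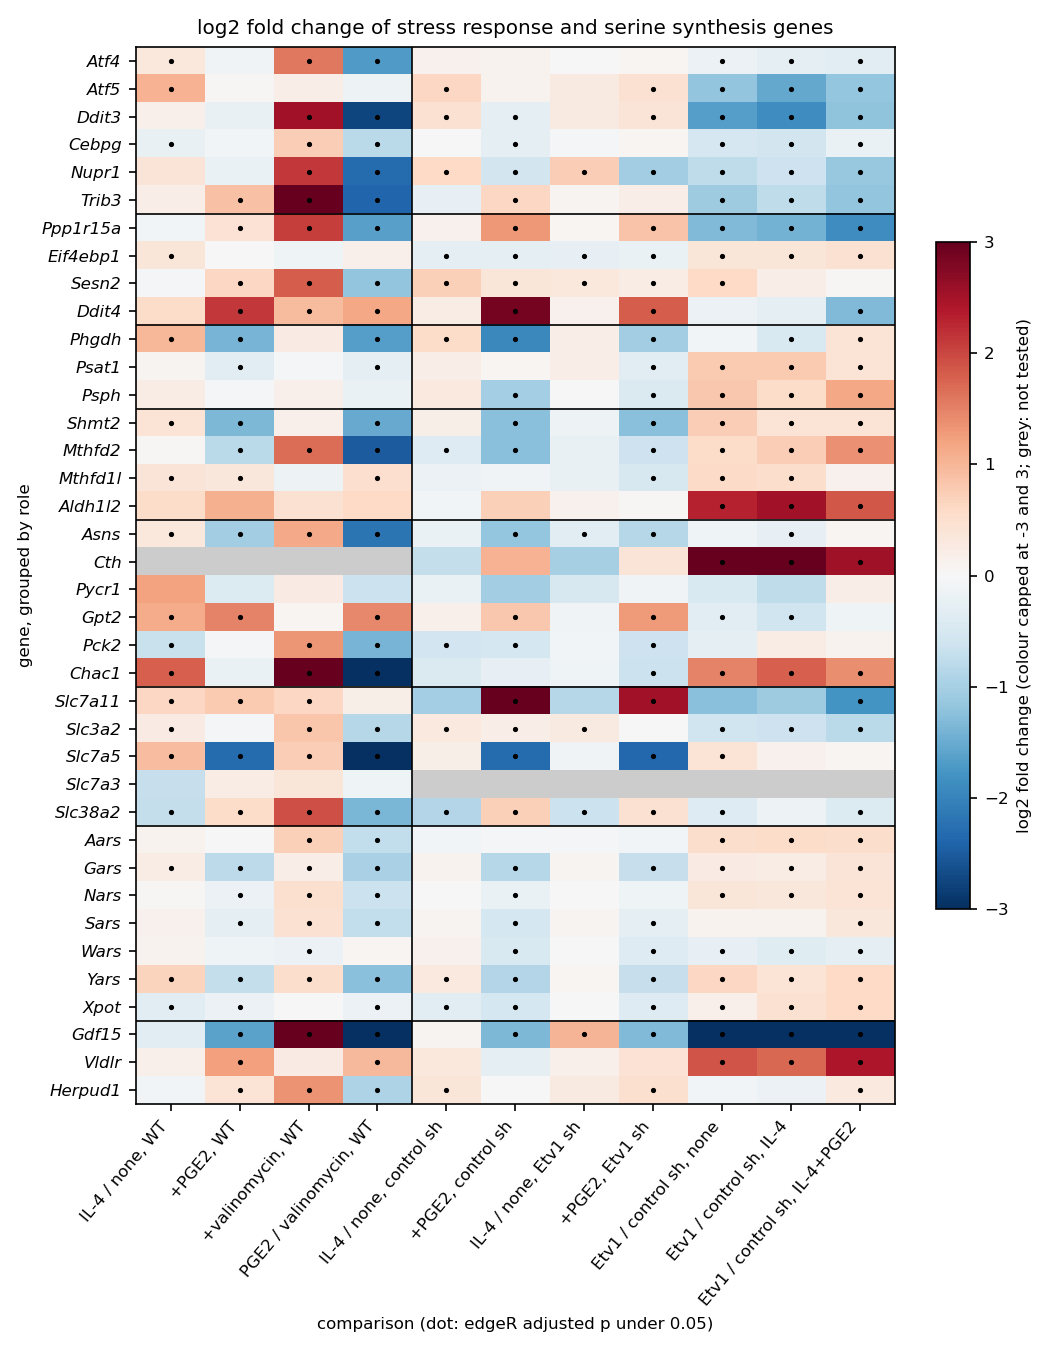
Log2 fold change of the stress response and serine synthesis genes (rows, ordered by role) in 11 comparisons (columns), with red for higher, blue for lower, grey for not tested and a dot for an adjusted p under 0.05. The valinomycin column is red for 23 called genes, while the PGE2 columns hold both colours, and the columns of Etv1 against control shRNA show the 6 transcription factors and modulators in blue and the mitochondrial one-carbon enzymes in red.

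Valinomycin on top of IL-4 raised most of the module. Of 37 genes tested, 23 rose and 1 fell, against 19.4% and 18.9% of all genes tested, and 13 of the 37 rose at least 2-fold, against 1.51% of all genes. The median log2 fold change was 0.61 over the 37 genes and -0.03 over all genes. The largest rises were in Chac1 (36.6-fold), which degrades glutathione, the secreted stress cytokine Gdf15 (9.99-fold), the ATF4 inhibitor Trib3 (9.68-fold) and Ddit3 (5.73-fold), which encodes CHOP. The 3 enzymes of serine synthesis did not pass the test. Macrophage markers, with none of 8 at 0, summed to 14361 to 15158 CPM in the valinomycin libraries and to 15695 to 17072 in those with IL-4 alone, which do not overlap. Neutrophil markers, with none of 8 at 0, summed to 175 to 230.4 and 233 to 268 CPM in the same libraries, also without overlap, and the part of either list in the result was not tested. The Ddit4 call was lost without IL-4 library 1 or 3 or valinomycin library 2 or 3 (adjusted p = 0.0613 to 0.0866) and with no filter on low counts (adjusted p = 0.0604). The Wars call was lost without IL-4 library 2 or 3 or valinomycin library 2 or 3 (adjusted p = 0.055 to 0.313) and with DESeq2, with no filter on low counts or with only the compared groups fitted (adjusted p = 0.0918 to 0.107). The Gars call was lost without valinomycin library 1 (adjusted p = 0.0799).

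PGE2 on top of IL-4 split the module. In wild type cells 10 genes rose and 12 fell, against 29.9% and 29.5% of all genes, so that the share in each direction was near that of the genome. The falls were led by the leucine transporter Slc7a5, by Gdf15, by the first serine synthesis enzyme Phgdh, by Shmt2 and by Asns. The rises were led by the mTORC1 inhibitor Ddit4, the alanine aminotransferase Gpt2 and the lipoprotein receptor Vldlr. Atf4, Ddit3 and Chac1 did not pass the test. The Herpud1 call was lost without IL-4 library 2 or 3 or PGE2 library 1 (adjusted p = 0.0937 to 0.116). The Trib3 call was lost without IL-4 library 1 or 3 or PGE2 library 3 (adjusted p = 0.0545 to 0.0694). The Xpot call was lost without IL-4 library 1 or PGE2 library 2 (adjusted p = 0.0733 to 0.0747).

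Set directly against valinomycin, both on IL-4, PGE2 left 25 genes lower and 4 higher, against 31.5% and 31.7% of all genes. The median log2 difference was -0.86 over the 37 genes and 0.00 over all genes. Ddit4, Gpt2, Vldlr and Mthfd1l were the 4 genes higher with PGE2. Both contrasts with IL-4 share its 3 libraries, whereas this one does not use them. It does reuse their PGE2 and valinomycin libraries, and its log2 values are the difference of those contrasts, so it is not separate evidence. Against IL-4 the median over the 37 genes was 0.61 with valinomycin and -0.07 with PGE2. The Vldlr call was lost without valinomycin library 1 (adjusted p = 0.0685) and with DESeq2 (adjusted p = 0.0601). The Xpot call was lost without PGE2 library 2 or valinomycin library 2 (adjusted p = 0.076 to 0.087).

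IL-4 alone also moved part of the module. Against unstimulated wild type cells, 14 genes rose and 4 fell, where 24.0% and 22.4% of all genes did. Gpt2, Atf5 and Chac1 rose at least 2-fold, and Phgdh rose just short of that, while Slc38a2, Pck2, Xpot and Cebpg fell. Macrophage markers summed to 15695 to 17072 CPM with IL-4 and to 18467 to 19083 without stimulus, and their part was not tested. The Chac1 call was lost without IL-4 library 3 or unstimulated library 1 or 2 (adjusted p = 0.0613 to 0.0797). Leaving out unstimulated library 3 moved the log2 fold change of Chac1 to 2.47, still called. Leaving out IL-4 library 2 moved the log2 fold change of Eif4ebp1 to 0.25, still called.

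**Figure D2:**
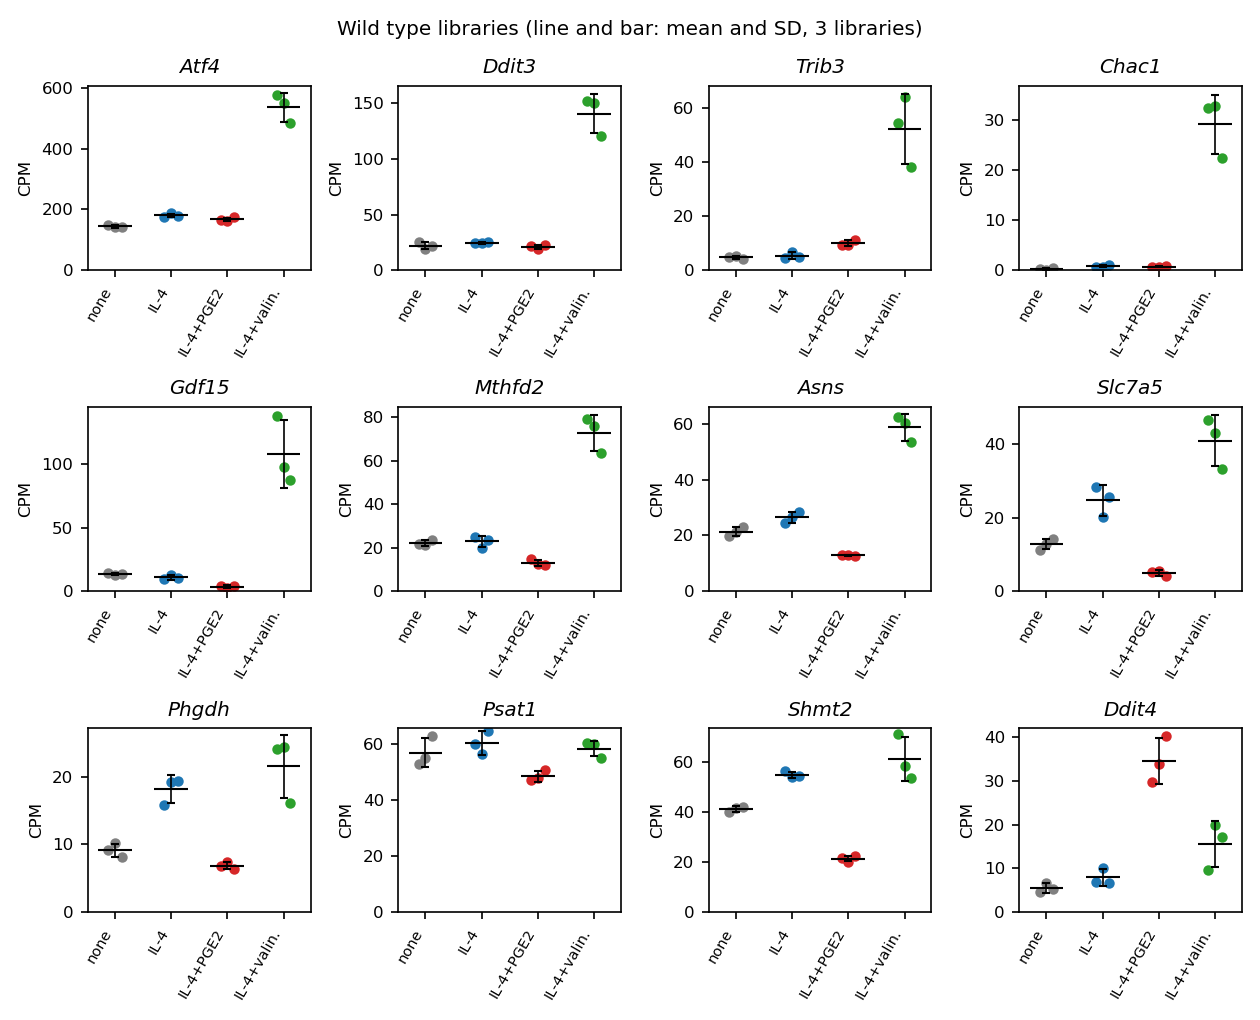
Level in CPM (y axis, linear, from 0) of 12 genes in each of the 12 wild type libraries by stimulus (x axis), with a line for the mean of 3 libraries and a bar for the SD. The valinomycin libraries sit highest for Atf4, Ddit3, Trib3, Chac1, Gdf15, Mthfd2, Asns and Slc7a5, and the PGE2 libraries sit highest for Ddit4 and lowest for Phgdh, Psat1 and Shmt2.

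Among the 6 transcription factors and their modulators, 5 rose with valinomycin, against 19.4% of all genes. Atf4, the central factor of the response, stood at 149, 143 and 141 CPM without stimulus, 176, 186 and 179 with IL-4, 164, 162 and 174 with IL-4 and PGE2, and 576, 551 and 484 with IL-4 and valinomycin. Its IL-4 libraries lay above the unstimulated ones without overlap. That rise was called and stayed so in all 6 fits that left out 1 library. The valinomycin libraries lay well above the other 9, and the log2 fold change over IL-4 was 1.57 ± 0.05 (adjusted p = 8.03e-16, n = 3). With PGE2 it was -0.12 ± 0.06 and was not called. Ddit3, whose protein CHOP can drive cell death under lasting stress, measured 24.9, 19.1 and 21.8 CPM without stimulus, 24.1, 23.99 and 25.7 with IL-4, 21.4, 18.96 and 22.6 with IL-4 and PGE2, and 152, 150.1 and 120.4 with IL-4 and valinomycin. It rose with valinomycin by 2.52 ± 0.09 (adjusted p = 1.34e-12), while its PGE2 libraries lay just below those with IL-4 and were not called (-0.23 ± 0.12). Trib3, a pseudokinase that ATF4 induces and that restrains it, measured 4.77, 5.21 and 4.25 CPM without stimulus, 4.36, 6.86 and 4.84 with IL-4, 9.36, 9.35 and 11.3 with IL-4 and PGE2, and 54.3, 63.96 and 38.3 with IL-4 and valinomycin. It rose by 3.28 ± 0.21 with valinomycin and by 0.89 ± 0.27 with PGE2, and the difference between both treatments was -2.39 ± 0.19. Nupr1, a small stress-induced chromatin protein, measured 3.66, 4.75 and 4.33 CPM without stimulus, 4.01, 5.34 and 7.19 with IL-4, 4.14, 4.89 and 5.54 with IL-4 and PGE2, and 29.9, 24.9 and 17.3 with IL-4 and valinomycin. Its rise with valinomycin was 2.11 ± 0.21, and its PGE2 libraries were not called against IL-4. Cebpg, a C/EBP partner of ATF4, rose with valinomycin from 68.02 ± 3.73 to 114 ± 3.83 CPM (SD, n = 3), by 0.74 ± 0.06. Atf5, a related factor tied to the mitochondrial stress response, measured 34.9, 32.7 and 31.6 CPM without stimulus, 62.4, 64.8 and 75.9 with IL-4, 68.4, 63.1 and 78.3 with IL-4 and PGE2, and 73.5, 81.5 and 77.7 with IL-4 and valinomycin. It rose with IL-4 (1.04 ± 0.08), and it was the 1 factor of the 6 not called with valinomycin (0.19 ± 0.08). With PGE2 its value was 0.04 ± 0.08.

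Of the 4 regulators of translation and growth, 3 rose with valinomycin and 3 with PGE2, against 19.4% and 29.9% of all genes. The Ddit4 call under valinomycin was lost without any of 4 single libraries. Ppp1r15a encodes GADD34, the phosphatase subunit that reverses the phosphorylation of eIF2alpha, and measured 34.2, 35.5 and 27.9 CPM without stimulus, 26.9, 30.5 and 34.1 with IL-4, 38.7, 36.9 and 49.7 with IL-4 and PGE2, and 137, 124 and 124 with IL-4 and valinomycin. It rose by 2.07 ± 0.11 with valinomycin and by 0.45 ± 0.12 with PGE2. Sesn2, a leucine sensor that restrains mTORC1, measured 21.97, 25.2 and 20.5 CPM without stimulus, 21.4, 22.1 and 20.8 with IL-4, 30.1, 30.4 and 39.4 with IL-4 and PGE2, and 75.6, 84.1 and 65.5 with IL-4 and valinomycin. Valinomycin raised it by 1.81 ± 0.11 and PGE2 by 0.63 ± 0.12, and the libraries of both treatments lay above all IL-4 libraries. Ddit4, also called REDD1 and another brake on mTORC1, measured 4.51, 6.61 and 5.35 CPM without stimulus, 6.89, 10.2 and 6.72 with IL-4, 29.9, 33.8 and 40.4 with IL-4 and PGE2, and 9.71, 19.9 and 17.1 with IL-4 and valinomycin. Here PGE2 gave the larger rise, 2.12 ± 0.26 against IL-4 and 1.16 ± 0.23 against valinomycin, with no overlap, whereas the valinomycin and IL-4 libraries overlapped (0.96 ± 0.29, adjusted p = 0.0253). Eif4ebp1, the translation repressor 4E-BP1, rose with IL-4 by 0.37 ± 0.11 and was called with neither treatment.

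None of the 3 serine synthesis enzymes was called with valinomycin, and 2 fell with PGE2, against 29.5% of all genes. Phgdh, which commits a glycolytic intermediate to serine, measured 9.11, 10.1 and 8.21 CPM without stimulus, 15.8, 19.3 and 19.4 with IL-4, 6.75, 7.46 and 6.42 with IL-4 and PGE2, and 24.1, 24.4 and 16.2 with IL-4 and valinomycin. It rose with IL-4 (0.998 ± 0.15) and fell with PGE2 (-1.400 ± 0.15, adjusted p = 1.52e-07), whose 3 libraries lay below every other wild type library. With valinomycin its log2 fold change was 0.24 ± 0.13 and was not called. Psat1, the aminotransferase of the second step, averaged 60.5 ± 4.29 CPM with IL-4, 48.6 ± 1.96 with PGE2 and 58.5 ± 2.84 with valinomycin (SD, n = 3), and only the fall with PGE2, -0.32 ± 0.07, was called. Psph, the phosphatase of the last step, was called in none of the wild type comparisons, with -0.05 ± 0.14 for PGE2 and 0.14 ± 0.14 for valinomycin.

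Of the 4 mitochondrial one-carbon enzymes, 1 rose with valinomycin, against 19.4% of all genes. With PGE2 2 fell and 1 rose, against 29.5% and 29.9%, and counts over 4 genes are too small to set apart from these shares. Mthfd2, a folate dehydrogenase of the mitochondrial matrix, measured 21.7, 21.1 and 23.5 CPM without stimulus, 24.9, 19.9 and 23.7 with IL-4, 14.6, 12.4 and 11.8 with IL-4 and PGE2, and 79.2, 75.97 and 63.5 with IL-4 and valinomycin. It rose by 1.68 ± 0.09 with valinomycin and fell with PGE2 (-0.81 ± 0.11, adjusted p = 2.78e-06), so that the PGE2 and valinomycin libraries lay at opposite ends. Shmt2, which splits serine into glycine and a one-carbon unit, measured 39.9, 41.7 and 42.02 CPM without stimulus, 56.1, 53.97 and 54.1 with IL-4, 21.6, 20.2 and 22.3 with IL-4 and PGE2, and 70.9, 58.5 and 53.7 with IL-4 and valinomycin. Its PGE2 libraries were the lowest of the 12 (-1.36 ± 0.09), and valinomycin gave 0.16 ± 0.07, which was not called. Mthfd1l, which releases formate, moved the other way with PGE2 in these wild type cells, by 0.34 ± 0.07, but not in the shRNA experiment below. Aldh1l2 averaged under 1 CPM in each wild type group and was not called.

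Among the enzymes of amino acid and glutathione metabolism, Chac1 showed the largest change of the 37 genes. Chac1 cleaves glutathione inside the cell, and it measured 0.1703, 0.0931 and 0.367 CPM without stimulus, 0.697, 0.638 and 1.02 with IL-4, 0.537, 0.686 and 0.875 with IL-4 and PGE2, and 32.4, 32.8 and 22.4 with IL-4 and valinomycin. Its change with valinomycin was 5.19 ± 0.21 (adjusted p = 5.53e-14). No other wild type library was above 1.02 CPM. Asns makes asparagine and is a standard ATF4 target, and it measured 19.8, 21.2 and 23.03 CPM without stimulus, 24.4, 26.6 and 28.3 with IL-4, 12.9, 12.8 and 12.6 with IL-4 and PGE2, and 62.6, 60.1 and 53.4 with IL-4 and valinomycin. It rose with valinomycin (1.15 ± 0.07) and fell with PGE2 (-1.05 ± 0.09), with no overlap in either case. Pck2, the mitochondrial form of phosphoenolpyruvate carboxykinase, measured 29.5, 30.2 and 26.5 CPM without stimulus, 16.7, 20.3 and 16.8 with IL-4, 16.03, 17.7 and 17.9 with IL-4 and PGE2, and 45.9, 50.1 and 40.2 with IL-4 and valinomycin. It fell with IL-4 (-0.67 ± 0.10) and rose with valinomycin (1.34 ± 0.09). Gpt2, the mitochondrial alanine aminotransferase, measured 16.3, 16.7 and 18.04 CPM without stimulus, 35.5, 39.9 and 35.4 with IL-4, 97.9, 106 and 107 with IL-4 and PGE2, and 37.1, 40.6 and 37.3 with IL-4 and valinomycin. It rose with IL-4 (1.12 ± 0.08) and further with PGE2 (1.49 ± 0.06), and valinomycin left it at 0.05 ± 0.07. Pycr1, the last enzyme of proline synthesis, averaged under 1 CPM in each wild type group and was not called.

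Amino acid transporters rose with valinomycin in 4 of 5 cases, against 19.4% of all genes. Slc7a5, the light chain of the large neutral amino acid carrier, measured 11.3, 12.8 and 14.3 CPM without stimulus, 28.2, 20.2 and 25.7 with IL-4, 5.29, 5.41 and 3.99 with IL-4 and PGE2, and 46.8, 43.04 and 33.3 with IL-4 and valinomycin. Its 3 PGE2 libraries were the lowest and its 3 valinomycin libraries the highest, at -2.32 ± 0.19 (adjusted p = 6.2e-08) and 0.74 ± 0.13 (adjusted p = 0.000519) against IL-4. Its heavy chain partner Slc3a2, which it needs to reach the membrane, rose with valinomycin by 0.83 ± 0.05 and was not called with PGE2 (-0.03 ± 0.05). Slc38a2, a sodium-coupled carrier of small neutral amino acids, measured 75.02, 77.2 and 83.5 CPM without stimulus, 52.4, 41.6 and 51.02 with IL-4, 73.8, 70.01 and 68.6 with IL-4 and PGE2, and 198, 194 and 158 with IL-4 and valinomycin. It fell with IL-4 (-0.70 ± 0.10) and rose with either addition, by 1.93 ± 0.09 with valinomycin and 0.55 ± 0.10 with PGE2. Slc7a11, the cystine importer that feeds glutathione synthesis, rose with IL-4 (0.62 ± 0.13), PGE2 (0.79 ± 0.11) and valinomycin (0.61 ± 0.11). Slc7a3, a carrier of cationic amino acids, averaged 1.61 ± 0.5397 CPM without stimulus and was not called in any comparison.

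The cytosolic tRNA synthetases, which load amino acids onto tRNAs, moved by less. Yars, for tyrosine, measured 33.2, 32.8 and 35.6 CPM without stimulus, 53.4, 53.1 and 54.7 with IL-4, 32.8, 33.3 and 31.9 with IL-4 and PGE2, and 90.4, 77.9 and 65.7 with IL-4 and valinomycin. It rose with IL-4 (0.66 ± 0.09) and valinomycin (0.54 ± 0.08) and fell with PGE2 (-0.72 ± 0.09), to about its unstimulated level. With valinomycin, Aars (0.72 ± 0.05), Nars (0.48 ± 0.04), Sars (0.46 ± 0.07) and Gars (0.20 ± 0.06) also rose, and Wars, which interferons induce in many cells, was the 1 gene of the module that fell (-0.18 ± 0.07). With PGE2, Gars (-0.77 ± 0.06), Sars (-0.27 ± 0.07), Nars (-0.17 ± 0.04) and the tRNA export receptor Xpot (-0.18 ± 0.06) fell as well. Aars stayed at 0.00 ± 0.05 with PGE2 and was not called.

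Of the 3 remaining genes tested, 2 rose with valinomycin, against 19.4% of all genes. With PGE2 2 rose and 1 fell, against 29.9% and 29.5%. Gdf15, a cytokine that rises in blood under mitochondrial stress, measured 14.1, 13.03 and 13.5 CPM without stimulus, 9.503, 12.8 and 10.1 with IL-4, 4.06, 2.23 and 4.28 with IL-4 and PGE2, and 138, 97.5 and 87.8 with IL-4 and valinomycin. Valinomycin raised it by 3.32 ± 0.21 and PGE2 lowered it (-1.62 ± 0.36), and neither set of libraries overlapped that of IL-4. Herpud1, which helps clear misfolded protein from the endoplasmic reticulum, measured 24.01, 22.6 and 22.95 CPM without stimulus, 25.5, 19.8 and 20.6 with IL-4, 31.98, 27.5 and 27.6 with IL-4 and PGE2, and 64.97, 58.7 and 43.7 with IL-4 and valinomycin. It rose with valinomycin (1.35 ± 0.14) and, by less, with PGE2 (0.41 ± 0.15). Vldlr, a lipoprotein receptor that ATF4 can induce, measured 0.511, 1.02 and 1.03 CPM without stimulus, 0.6103, 0.877 and 1.33 with IL-4, 2.45, 2.32 and 1.85 with IL-4 and PGE2, and 0.764, 1.801 and 0.881 with IL-4 and valinomycin. It rose with PGE2 (1.22 ± 0.33) and was not called with valinomycin (0.25 ± 0.37).

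Etv1 itself, the target of the hairpin, served as a check of the labels. It measured 10.9, 10.4 and 10.5 CPM without stimulus, 15.3, 11.5 and 14.9 with IL-4, and 29.1, 21.8 and 33.1 with IL-4 and PGE2 for the control hairpin, against 4.84, 2.51 and 2.97 CPM without stimulus, 6.002, 4.97 and 5.02 with IL-4, and 9.08, 7.72 and 9.86 with IL-4 and PGE2 for the Etv1 hairpin. The log2 difference was -1.69 ± 0.20 without stimulus, -1.39 ± 0.19 with IL-4 and -1.67 ± 0.16 with IL-4 and PGE2, and the hairpin groups did not overlap in any condition. The summed macrophage marker level was lower with the Etv1 hairpin in each condition, at 8902 to 9483 against 18311 to 20290 CPM without stimulus, 9466 to 10065 against 15895 to 17064 with IL-4 and 9782 to 10386 against 19329 to 21465 with PGE2. Of the 8 markers, 6, 6 and 5 were called lower, against 26.8%, 25.6% and 26.7% of all genes. In each condition 1 marker was called higher, against 24.9%, 25.4% and 27.6%. The part of these markers in the hairpin differences below was not tested.

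With the control hairpin, PGE2 on top of IL-4 again moved the module in both directions. It raised 8 genes and lowered 18 of 37, against 29.3% and 30.1% of all genes. The control hairpin and wild type experiments share no library, and among the 36 genes tested in both, 7 rose in each, 11 fell in each and none was called in opposite directions. Of all 11906 genes tested in both, 21.5% rose in each, 22.3% fell in each and 1.67% were called in opposite directions. By the ranges above, the summed macrophage marker level of the control hairpin was higher with PGE2 than with IL-4 alone, without overlap. Of the 8 markers 3 were called higher and 3 lower, near the 29.3% and 30.1% of all genes. Their median log2 fold change was -0.13, and their part was not tested. Slc7a11, Ddit4 and Ppp1r15a rose most, and Slc7a5, Phgdh and Gdf15 fell most. The Nupr1 call was lost without control hairpin IL-4 library 1 or control hairpin PGE2 library 3 (adjusted p = 0.0516 to 0.0559). The Trib3 call was lost without control hairpin IL-4 library 1 (adjusted p = 0.0548) and with only the compared groups fitted (adjusted p = 0.0532). Leaving out control hairpin IL-4 library 2 moved the log2 fold change of Slc7a11, Sesn2 and Trib3 to 3.84, 0.25 and 0.99, still called.

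**Figure D3:**
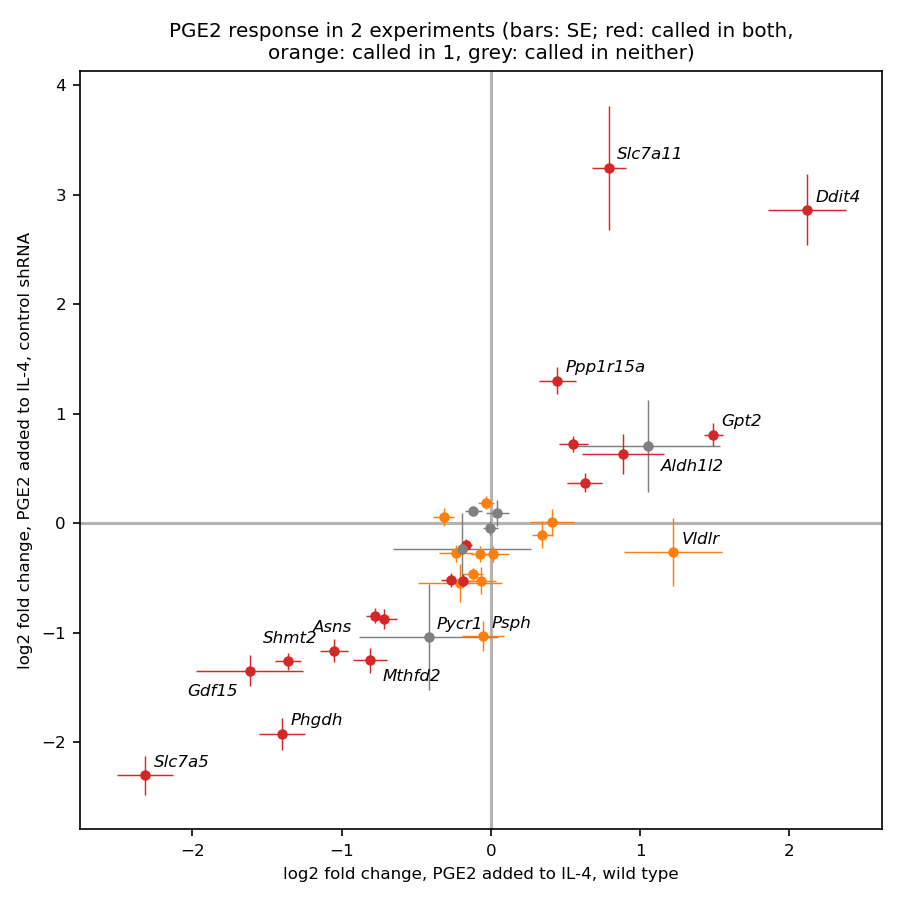
Log2 fold change for PGE2 added to IL-4 in wild type cells (x axis) and with the control hairpin (y axis) for the 36 genes tested in both, with SE bars, red for genes called in both, orange in 1 and grey in neither. All 18 red points lie in the lower left or upper right, and Slc7a11 stands apart with 0.79 against 3.25.

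With the Etv1 hairpin, PGE2 raised 9 and lowered 18 of the 37 genes, against 24.6% and 22.8% of all genes. Between the hairpins, 6 genes rose with PGE2 in both and 15 fell in both, and Ddit3 was the 1 gene called in opposite directions, where 19.9%, 19.3% and 0.565% of all genes did so. The Chac1 call was lost without Etv1 hairpin IL-4 library 1 or Etv1 hairpin PGE2 library 2 or 3 (adjusted p = 0.0939 to 0.168) and with DESeq2 or with only the compared groups fitted (adjusted p = 0.0503 to 0.0623). The Sesn2 call was lost without Etv1 hairpin IL-4 library 1 or 3 or Etv1 hairpin PGE2 library 1 or 2 (adjusted p = 0.0552 to 0.143) and with upper-quartile factors (adjusted p = 0.0794). The Eif4ebp1 call was lost without Etv1 hairpin IL-4 library 1 or 2 or Etv1 hairpin PGE2 library 1 or 2 (adjusted p = 0.0581 to 0.158). Leaving out Etv1 hairpin PGE2 library 1 moved the log2 fold change of Chac1 to -0.98, still called.

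IL-4 alone raised 8 and lowered 5 of the 37 genes with the control hairpin, against 17.2% and 17.1% of all genes, and raised 4 and lowered 3 with the Etv1 hairpin, against 10.9% and 7.16%. Sesn2 (0.71 ± 0.09), Atf5 (0.63 ± 0.12) and Nupr1 (0.59 ± 0.17) rose most with the control hairpin, and Slc38a2 fell with either hairpin (-0.89 ± 0.07 and -0.66 ± 0.07). In wild type cells and with the control hairpin, 4 genes rose with IL-4 in both and 3 fell in both, while Eif4ebp1 rose in the former and fell in the latter, where 13.2% and 12.4% of all genes tested in both rose or fell in both and 0.613% were called in opposite directions. The Yars call was lost without control hairpin IL-4 library 3 or control hairpin unstimulated library 2 (adjusted p = 0.0896 to 0.158) and with only the compared groups fitted (adjusted p = 0.0617). The Nupr1 call was lost without control hairpin IL-4 library 1 or control hairpin unstimulated library 2 (adjusted p = 0.0524 to 0.0576). The Herpud1 call was lost without control hairpin IL-4 library 1 or 3 or control hairpin unstimulated library 2 (adjusted p = 0.0605 to 0.121). The Sesn2 call was lost without Etv1 hairpin IL-4 library 2 or Etv1 hairpin unstimulated library 3 (adjusted p = 0.0513 to 0.0557). The Asns call was lost without Etv1 hairpin IL-4 library 2 or 3 or Etv1 hairpin unstimulated library 1 or 3 (adjusted p = 0.0561 to 0.185). The Nupr1 call was lost without Etv1 hairpin IL-4 library 1 or Etv1 hairpin unstimulated library 1 (adjusted p = 0.0502 to 0.0783). The Eif4ebp1 call was lost without Etv1 hairpin IL-4 library 1 or 3 or Etv1 hairpin unstimulated library 1 (adjusted p = 0.0512 to 0.109).

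Etv1 shRNA against control shRNA left part of the module higher and part lower. Without stimulus 17 genes were higher and 12 lower of 37, against 24.9% and 26.8% of all genes. With IL-4 the counts were 15 and 13 against 25.4% and 25.6%, and with IL-4 and PGE2 they were 17 and 13 against 27.6% and 26.7%. All 6 transcription factors and modulators were lower in each of the 3 conditions. The mitochondrial one-carbon enzymes were higher, 4 of 4 without stimulus and with IL-4 and 3 of 4 with PGE2, and of the 7 synthetase and tRNA export genes 5, 5 and 6 were higher. Other roles were mixed, such as the transporters with 1 higher and 2 lower of 4 tested without stimulus. The 3 conditions use different libraries of the same hairpins. Deviations from group means correlated above 0.1 in 34 of 45 shRNA pairs with the same replicate number. The 3 conditions may therefore not be independent of each other. The Gpt2 call was lost without Etv1 hairpin unstimulated library 1 or 2 or control hairpin unstimulated library 2 (adjusted p = 0.0517 to 0.0667). The Xpot call was lost without Etv1 hairpin unstimulated library 1 or control hairpin unstimulated library 2 (adjusted p = 0.0811 to 0.0835) and with no filter on low counts (adjusted p = 0.0931). The Slc7a5 call was lost without Etv1 hairpin unstimulated library 1 or 3 or control hairpin unstimulated library 2 (adjusted p = 0.0765 to 0.135) and with no filter on low counts (adjusted p = 0.0945). Leaving out control hairpin unstimulated library 2 moved the log2 fold change of Cth to 4.15, still called. The Asns call was lost without Etv1 hairpin IL-4 library 2 or 3 or control hairpin IL-4 library 2 or 3 (adjusted p = 0.0535 to 0.232) and with DESeq2, with RLE size factors or with upper-quartile factors (adjusted p = 0.0521 to 0.0819). The Trib3 call was lost with only the compared groups fitted (adjusted p = 0.0632). Leaving out control hairpin IL-4 library 1 moved the log2 fold change of Aldh1l2 and Cth to 3.45 and 3.84, still called. Leaving out control hairpin IL-4 library 2 moved the log2 fold change of Trib3 to -0.41, still called. The Herpud1 call was lost without Etv1 hairpin PGE2 library 1 or 3 or control hairpin PGE2 library 2 or 3 (adjusted p = 0.122 to 0.217) and with DESeq2 or with RLE size factors (adjusted p = 0.0593 to 0.0931). The Phgdh call was lost without Etv1 hairpin PGE2 library 1 or control hairpin PGE2 library 1 or 3 (adjusted p = 0.116 to 0.337) and with DESeq2 or with only the compared groups fitted (adjusted p = 0.0579 to 0.105). The Cebpg call was lost without Etv1 hairpin PGE2 library 1 or 2 or control hairpin PGE2 library 3 (adjusted p = 0.0619 to 0.0912). The Ddit4 call was lost with only the compared groups fitted (adjusted p = 0.0542). Leaving out control hairpin PGE2 library 2 moved the log2 fold change of Ddit4 to -0.82, still called. Leaving out control hairpin PGE2 library 3 moved the log2 fold change of Cth to 1.78, still called.

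**Figure D4:**
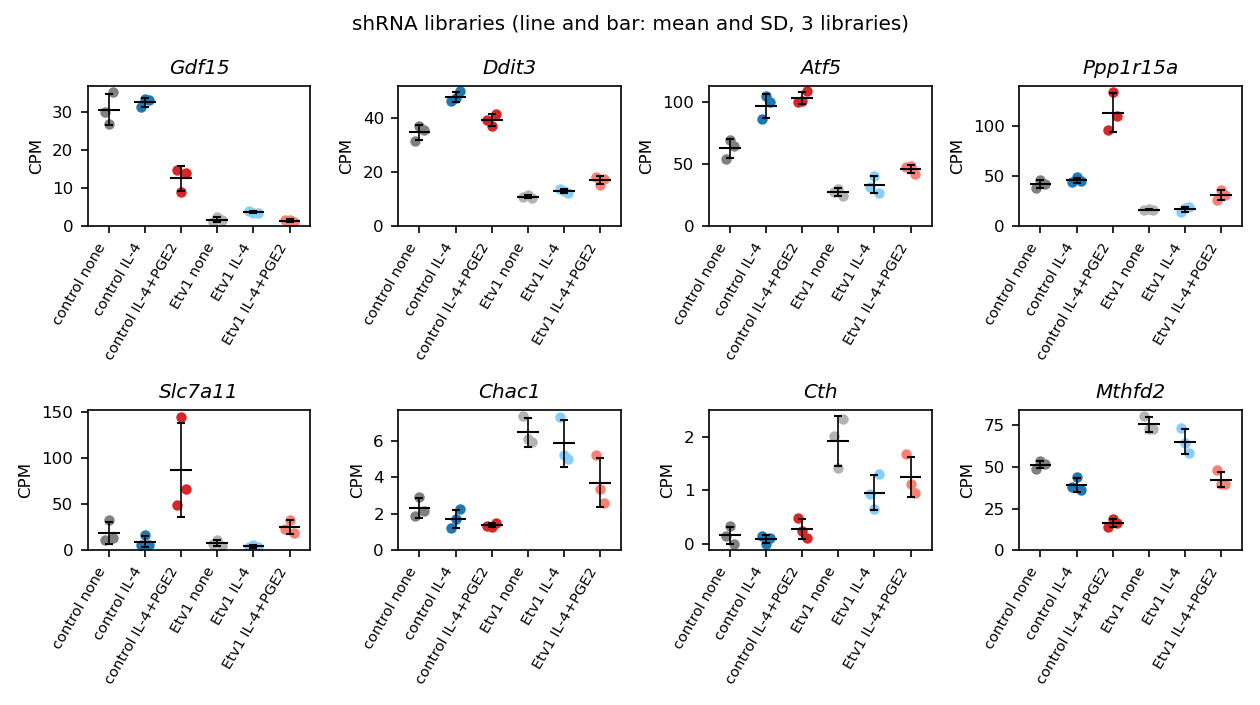
Level in CPM (y axis, linear) of 8 genes in each of the 18 shRNA libraries by hairpin and stimulus (x axis), with a line for the mean of 3 libraries and a bar for the SD. Gdf15, Ddit3, Atf5 and Ppp1r15a are lower and Chac1, Cth and Mthfd2 higher with the Etv1 hairpin in each condition, and the Slc7a11 libraries of a group spread widely.

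Among the factors, Ddit3 measured 31.6, 37.01 and 35.7 CPM without stimulus, 46.2, 47.4 and 49.9 with IL-4, and 39.4, 36.9 and 41.6 with IL-4 and PGE2 for the control hairpin, against 10.8, 11.5 and 10.5 CPM without stimulus, 13.9, 13.1 and 12.5 with IL-4, and 18.3, 15.4 and 17.5 with IL-4 and PGE2 for the Etv1 hairpin. No library of the Etv1 hairpin reached the lowest of the control hairpin, and the differences were -1.66 ± 0.09, -1.86 ± 0.09 and -1.21 ± 0.08 in the 3 conditions. Atf5 measured 54.2, 69.3 and 64.9 CPM without stimulus, 86.2, 105 and 100.3 with IL-4, and 100.2, 101 and 109 with IL-4 and PGE2 for the control hairpin, against 27.8, 30.4 and 24.4 CPM without stimulus, 32.1, 40.7 and 27.2 with IL-4, and 47.9, 48.4 and 42.04 with IL-4 and PGE2 for the Etv1 hairpin. It too was lower throughout, at -1.19 ± 0.13, -1.54 ± 0.13 and -1.17 ± 0.12. Trib3 measured 11.5, 15.2 and 11.7 CPM without stimulus, 8.57, 16.04 and 8.34 with IL-4, and 16.3, 17.8 and 16.4 with IL-4 and PGE2 for the control hairpin, against 6.72, 6.03 and 5.62 CPM without stimulus, 6.31, 7.64 and 5.21 with IL-4, and 7.06, 7.31 and 7.78 with IL-4 and PGE2 for the Etv1 hairpin. The differences were -1.08 ± 0.20, -0.76 ± 0.21 and -1.18 ± 0.19. Nupr1 measured 12.03, 8.48 and 9.57 CPM without stimulus, 16.7, 12.4 and 16.7 with IL-4, and 12.9, 8.796 and 10.1 with IL-4 and PGE2 for the control hairpin, against 5.11, 6.53 and 6.09 CPM without stimulus, 12.005, 10.4 and 7.54 with IL-4, and 5.46, 4.47 and 4.41 with IL-4 and PGE2 for the Etv1 hairpin. The differences were -0.76 ± 0.19, -0.62 ± 0.18 and -1.13 ± 0.20, and PGE2 lowered it with the Etv1 hairpin (-1.05 ± 0.20). Atf4 itself was lower too, by at most 1.27-fold, at log2 differences of -0.17 ± 0.05, -0.29 ± 0.05 and -0.35 ± 0.05, all called.

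Ppp1r15a, the eIF2alpha phosphatase subunit, measured 37.96, 45.7 and 41.5 CPM without stimulus, 43.5, 48.7 and 44.97 with IL-4, and 95.2, 133 and 109 with IL-4 and PGE2 for the control hairpin, against 16.1, 17.3 and 16.01 CPM without stimulus, 14.2, 18.04 and 18.9 with IL-4, and 26.1, 35.7 and 31.5 with IL-4 and PGE2 for the Etv1 hairpin. PGE2 raised it with the control (1.303 ± 0.12) and the Etv1 hairpin (0.86 ± 0.14), from a lower level in the latter, and the hairpin difference under PGE2 was -1.86 ± 0.12. Ddit4 measured 4.35, 3.83 and 4.48 CPM without stimulus, 5.56, 3.73 and 5.41 with IL-4, and 24.6, 59.5 and 26.3 with IL-4 and PGE2 for the control hairpin, against 3.8999, 3.52 and 3.904 CPM without stimulus, 3.42, 5.16 and 3.63 with IL-4, and 11.9, 18.4 and 13.5 with IL-4 and PGE2 for the Etv1 hairpin. PGE2 raised it with both, by 2.86 ± 0.32 and 1.83 ± 0.35, and under PGE2 it was lower with the Etv1 hairpin (-1.32 ± 0.28). The difference of the PGE2 effects, -1.04 ± 0.50, was not called. Sesn2 was higher with the Etv1 hairpin without stimulus (0.59 ± 0.09), and Eif4ebp1 was higher in all 3 conditions (0.37, 0.37 and 0.45).

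The serine synthesis enzymes fell with PGE2 in 5 of 6 cases with the hairpins, where 30.1% (control) and 22.8% (Etv1) of all genes fell. Phgdh measured 15.7, 12.6 and 14.6 CPM without stimulus, 20.1, 20.7 and 21.98 with IL-4, and 4.76, 6.45 and 5.39 with IL-4 and PGE2 for the control hairpin, against 14.4, 14.3 and 11.8 CPM without stimulus, 15.7, 14.7 and 15.4 with IL-4, and 9.41, 6.705 and 5.88 with IL-4 and PGE2 for the Etv1 hairpin. PGE2 lowered it with the control (-1.92 ± 0.15) and the Etv1 hairpin (-1.05 ± 0.15), and its PGE2 libraries were below all others of the same hairpin. Between the hairpins Phgdh changed direction. With the Etv1 hairpin it was not called without stimulus, was lower with IL-4 and was higher with PGE2 (0.42). The PGE2 call was lost in several fits, as given above. Psph measured 10.6, 14.3 and 11.8 CPM without stimulus, 14.4, 16.5 and 13.5 with IL-4, and 8.903, 6.802 and 6.58 with IL-4 and PGE2 for the control hairpin, against 22.5, 21.4 and 20.2 CPM without stimulus, 23.4, 22.3 and 19.3 with IL-4, and 16.2, 14.1 and 17.7 with IL-4 and PGE2 for the Etv1 hairpin. It fell with PGE2 with both (-1.03 ± 0.14 and -0.43 ± 0.12), and was higher with the Etv1 hairpin in each condition, most under PGE2 (1.15 ± 0.14). Psat1 was also higher with the Etv1 hairpin, by 0.77 ± 0.08, 0.78 ± 0.08 and 0.41 ± 0.08, and with the control hairpin PGE2 gave 0.06 ± 0.08, which was not called.

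In mitochondrial one-carbon metabolism, Mthfd2 measured 48.8, 53.4 and 51.9 CPM without stimulus, 37.8, 43.8 and 35.95 with IL-4, and 13.9, 18.9996 and 16.4 with IL-4 and PGE2 for the control hairpin, against 80.7, 72.7 and 72.9 CPM without stimulus, 72.96, 63.99 and 58.1 with IL-4, and 47.8, 39.4 and 39.9 with IL-4 and PGE2 for the Etv1 hairpin. It was lowered by PGE2 with both hairpins (-1.25 ± 0.11 and -0.61 ± 0.10), and was higher with the Etv1 hairpin by 0.55 ± 0.10, 0.73 ± 0.10 and 1.37 ± 0.11. Shmt2 measured 57.6, 55.6 and 58.7 CPM without stimulus, 67.2, 58.6 and 69.1 with IL-4, and 29.4, 26.9 and 25.7 with IL-4 and PGE2 for the control hairpin, against 97.8, 92.5 and 95.3 CPM without stimulus, 90.2, 88.1 and 80.2 with IL-4, and 40.2, 34.1 and 33.1 with IL-4 and PGE2 for the Etv1 hairpin. Its fall with PGE2 was -1.26 ± 0.08 and -1.26 ± 0.08. Aldh1l2, which burns the one-carbon unit to carbon dioxide, measured 0.831, 0.652 and 0.509 CPM without stimulus, 1.098, 0.452 and 0.225 with IL-4, and 0.488, 1.06 and 1.33 with IL-4 and PGE2 for the control hairpin, against 3.496, 3.68 and 3.36 CPM without stimulus, 4.76, 3.41 and 3.44 with IL-4, and 4.12, 4.47 and 3.29 with IL-4 and PGE2 for the Etv1 hairpin. At these low levels it was higher with the Etv1 hairpin by 2.31 ± 0.33, 2.53 ± 0.35 and 1.86 ± 0.30. Mthfd1l was higher with the Etv1 hairpin without stimulus (0.58 ± 0.11) and with IL-4 (0.52 ± 0.12). PGE2 lowered it with the Etv1 hairpin, opposite to wild type cells, and it was not called for PGE2 with the control hairpin.

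Chac1, in contrast to the factors, was higher with the Etv1 hairpin. It measured 1.86, 2.93 and 2.14 CPM without stimulus, 1.24, 1.69 and 2.25 with IL-4, and 1.34, 1.29 and 1.51 with IL-4 and PGE2 for the control hairpin, against 7.396, 6.11 and 5.93 CPM without stimulus, 7.35, 5.25 and 5.02 with IL-4, and 5.21, 3.35 and 2.59 with IL-4 and PGE2 for the Etv1 hairpin. The hairpin groups did not overlap, at 1.495 ± 0.25, 1.796 ± 0.28 and 1.39 ± 0.28. Cth, which makes cysteine from cystathionine, measured 0.147, 0.326 and 0 CPM without stimulus, 0.146, 0 and 0.113 with IL-4, and 0.488, 0.235 and 0.108 with IL-4 and PGE2 for the control hairpin, against 2.02, 1.42 and 2.34 CPM without stimulus, 0.931, 0.644 and 1.303 with IL-4, and 1.68, 1.12 and 0.951 with IL-4 and PGE2 for the Etv1 hairpin. Its 3 control hairpin libraries with IL-4 held 3 counts in all against 30 with the Etv1 hairpin, a ratio of 10.96 relative to library totals, with an exact 95% interval of 3.41 to 56.1 that covers counting error only. Without stimulus and with PGE2 the fitted differences were 3.47 ± 0.53 and 2.54 ± 0.55. Asns measured 52.8, 61.4 and 55.5 CPM without stimulus, 45.7, 56.02 and 47.1 with IL-4, and 22.7, 25.7 and 19.3 with IL-4 and PGE2 for the control hairpin, against 57.8, 48.6 and 49.1 CPM without stimulus, 45.6, 39.4 and 39.6 with IL-4, and 24.2, 23.5 and 21.02 with IL-4 and PGE2 for the Etv1 hairpin. PGE2 lowered it with both (-1.16 ± 0.11 and -0.86 ± 0.11). Gpt2 measured 15.5, 16.5 and 14.5 CPM without stimulus, 18.2, 15.8 and 17.7 with IL-4, and 32.9, 25.5 and 32.2 with IL-4 and PGE2 for the control hairpin, against 11.2, 12.1 and 13.1 CPM without stimulus, 12.1, 12.4 and 9.77 with IL-4, and 30.3, 27.1 and 26.3 with IL-4 and PGE2 for the Etv1 hairpin, and PGE2 raised it by 0.81 ± 0.11 and 1.29 ± 0.11. Pck2 fell with PGE2 with both hairpins (-0.52 ± 0.12 and -0.63 ± 0.12) and was called between hairpins in no condition.

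Of the transporters, Slc7a5 measured 29.5, 22.2 and 30.4 CPM without stimulus, 35.8, 23.6 and 33.2 with IL-4, and 7.196, 4.69 and 6.65 with IL-4 and PGE2 for the control hairpin, against 37.4, 31.9 and 39.3 CPM without stimulus, 37.8, 31.03 and 32.9 with IL-4, and 6.89, 5.89 and 6.92 with IL-4 and PGE2 for the Etv1 hairpin. PGE2 lowered it with both (-2.304 ± 0.18 and -2.36 ± 0.18), and the difference of -0.06 ± 0.26 was not called. Slc7a11 measured 10.8, 32.6 and 13.1 CPM without stimulus, 6.003, 16.2 and 6.09 with IL-4, and 49.8, 146 and 67.2 with IL-4 and PGE2 for the control hairpin, against 6.99, 11.3 and 4.997 CPM without stimulus, 3.21, 6.17 and 3.54 with IL-4, and 22.8, 33.4 and 19.1 with IL-4 and PGE2 for the Etv1 hairpin. PGE2 raised it by 3.25 ± 0.57 and 2.52 ± 0.67, and library 2 was the highest in each of the 6 groups. Under PGE2 it was lower with the Etv1 hairpin (-1.798 ± 0.50, adjusted p = 0.0081), and the difference of the PGE2 effects, -0.73 ± 0.93, was not called. Slc3a2 was lower with the Etv1 hairpin, at -0.61 ± 0.06, -0.62 ± 0.06 and -0.81 ± 0.06. Slc38a2 fell with IL-4 and rose with PGE2 with both hairpins, by 0.72 ± 0.07 and 0.45 ± 0.07 for PGE2.

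The synthetases fell with PGE2 with the control hairpin, except Aars (-0.04 ± 0.06). For Yars the values were -0.88 ± 0.09 and -0.69 ± 0.09 with the control and the Etv1 hairpin, and for Gars they were -0.84 ± 0.07 and -0.69 ± 0.07. Aars, Gars, Nars and Yars were higher with the Etv1 hairpin in all 3 conditions, by 0.23 to 0.62, and Wars was lower in all 3 (-0.24, -0.36 and -0.29). Xpot was higher by 0.15 ± 0.05, 0.46 ± 0.05 and 0.60 ± 0.05.

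Gdf15 showed the largest fall with the Etv1 hairpin. It measured 29.9, 26.9 and 35.1 CPM without stimulus, 31.2, 33.3 and 33.2 with IL-4, and 14.8, 8.91 and 14.1 with IL-4 and PGE2 for the control hairpin, against 1.21, 2.34 and 1.72 CPM without stimulus, 3.93, 3.59 and 3.54 with IL-4, and 1.68, 1.63 and 1.12 with IL-4 and PGE2 for the Etv1 hairpin. The differences were -4.06 ± 0.19, -3.14 ± 0.17 and -3.11 ± 0.22, with no overlap. PGE2 lowered it with both hairpins (-1.35 ± 0.14 and -1.32 ± 0.27), and IL-4 raised it with the Etv1 hairpin (1.01 ± 0.26) where the control hairpin gave 0.09 ± 0.13. The difference of those IL-4 effects was 0.92 ± 0.29 and was not called. Vldlr measured 2.299, 1.47 and 2.75 CPM without stimulus, 2.71, 2.37 and 2.93 with IL-4, and 1.95, 1.76 and 2.55 with IL-4 and PGE2 for the control hairpin, against 8.47, 9.46 and 6.17 CPM without stimulus, 10.8, 10.7 and 5.303 with IL-4, and 12.9, 12.6 and 10.7 with IL-4 and PGE2 for the Etv1 hairpin. It was higher with the Etv1 hairpin by 1.88 ± 0.26, 1.73 ± 0.26 and 2.43 ± 0.25, and PGE2 was called with neither hairpin (-0.27 ± 0.31 and 0.44 ± 0.22). Herpud1 rose with PGE2 with the Etv1 hairpin (0.47 ± 0.12) and stood at 0.01 ± 0.12 with the control hairpin, and the difference of 0.47 ± 0.17 was not called.

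The PGE2 effect differed between the hairpins for 6 of 37 genes, 5 with a higher and 1 with a lower log2 fold change under the Etv1 hairpin, against 6.03% and 5.58% of all genes. These counts, and those for IL-4 below, were larger with the replicate number as a block, as given at the end. Phgdh fell less with the Etv1 hairpin, by a difference of 0.87 ± 0.21, as did Mthfd2 (0.64 ± 0.15) and Psph (0.60 ± 0.19). Ddit3 and Cebpg fell with the control hairpin (-0.28 ± 0.08 and -0.28 ± 0.07) and did not with the Etv1 hairpin (0.38 ± 0.09 and 0.06 ± 0.08), differences of 0.66 ± 0.12 and 0.34 ± 0.10. Psat1 went the other way, with -0.36 ± 0.12. The IL-4 effect differed for 1 gene, Xpot (0.31 ± 0.08), with a higher and for 0 with a lower log2 fold change, against 2.71% and 1.81% of all genes, and 6 of the 37 had an unadjusted p under 0.05. The Psat1 call was lost without Etv1 hairpin IL-4 library 1, 2 or 3, Etv1 hairpin PGE2 library 2 or 3, control hairpin IL-4 library 2 or 3 or control hairpin PGE2 library 1, 2 or 3 (adjusted p = 0.053 to 0.113) and with DESeq2, with no filter on low counts or with upper-quartile factors (adjusted p = 0.0533 to 0.0642). The Psph call was lost without Etv1 hairpin IL-4 library 2 or 3, Etv1 hairpin PGE2 library 1 or 3, control hairpin IL-4 library 1 or 2 or control hairpin PGE2 library 2 or 3 (adjusted p = 0.0612 to 0.174) and with DESeq2 or with only the compared groups fitted (adjusted p = 0.053 to 0.0582). The Cebpg call was lost without Etv1 hairpin IL-4 library 2 or 3, Etv1 hairpin PGE2 library 2 or 3, control hairpin IL-4 library 2 or control hairpin PGE2 library 1 or 3 (adjusted p = 0.0598 to 0.116) and with DESeq2, with RLE size factors or with only the compared groups fitted (adjusted p = 0.05 to 0.0617). The Xpot call was lost without Etv1 hairpin IL-4 library 1, Etv1 hairpin unstimulated library 2 or 3, control hairpin IL-4 library 1 or 3 or control hairpin unstimulated library 1 (adjusted p = 0.0522 to 0.107) and with no filter on low counts (adjusted p = 0.0524).

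**Figure D5:**
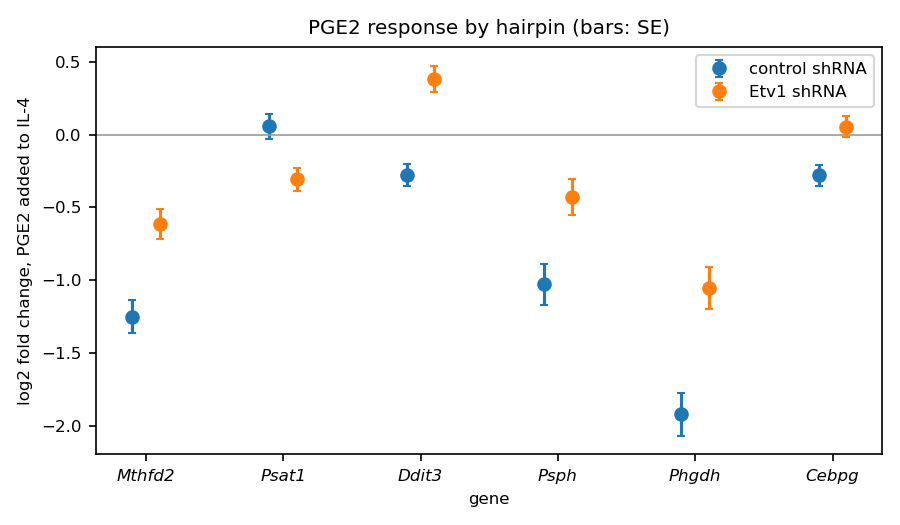
Log2 fold change for PGE2 added to IL-4 (y axis, SE bars) with the control and the Etv1 hairpin for the 6 genes whose PGE2 effect differed between them (x axis). Mthfd2, Psph and Phgdh lie below 0 with either hairpin and lower with the control hairpin, and Ddit3 lies on opposite sides of 0.

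Neighbouring parts of the pathway were read from lists of related genes. Of 14 other cytosolic tRNA synthetases, 7 rose and 1 fell with valinomycin, and 2 rose and 10 fell when wild type cells received PGE2. Cars, for cysteine, rose by 0.99 ± 0.06 with valinomycin, and Vars, for valine, was at -0.97 ± 0.07 with PGE2. Of 17 mitochondrial synthetases, 2 rose and 3 fell with valinomycin, near those shares, and 1 rose and 10 fell with PGE2, among them Ears2 (-1.24 ± 0.13). Of 15 genes for eIF2alpha kinases, phosphatases and the exchange factor eIF2B, 3 rose and 4 fell with valinomycin, also near those shares. Impact, an inhibitor of the kinase GCN2, was at 1.53 ± 0.12 and Ppp1r15b, the constitutive phosphatase subunit, at 0.72 ± 0.05. With PGE2 4 rose and 7 fell, led by the eIF2B subunit Eif2b3 (-1.199 ± 0.13).

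Of 17 further amino acid transporters and proline enzymes tested in wild type, 5 rose and 5 fell with valinomycin, and 4 rose and 7 fell with PGE2. For valinomycin 19.4% of all genes rose and 18.9% fell, and for PGE2 29.9% and 29.5%, here and for the next list. Slc1a4, a carrier of alanine and serine, rose by 1.55 ± 0.25 with valinomycin, and Slc1a5, a glutamine carrier, was at -1.23 ± 0.09 with PGE2. Of 14 genes of the cytosolic folate cycle, glycine cleavage and the methionine cycle, 3 rose and 5 fell with valinomycin and 4 rose and 7 fell with PGE2. There PGE2 raised Gcsh, a glycine cleavage protein (1.73 ± 0.06), and Mtr, methionine synthase (1.57 ± 0.06), and lowered Mthfd1 (-1.11 ± 0.08), the cytosolic folate enzyme. With the control hairpin the PGE2 values were 2.07 ± 0.07 for Gcsh, 1.19 ± 0.08 for Mtr and -1.37 ± 0.11 for Mthfd1.

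Chaperones and folding enzymes of the endoplasmic reticulum, which the ATF6 and XBP1 arms of the unfolded protein response control, made up a further list. Of 18 such genes 1 rose and 9 fell with valinomycin, with a median log2 fold change of -0.11, and Dnajc3, a co-chaperone that inhibits the eIF2alpha kinases, was at -0.33 ± 0.06. With PGE2 in wild type cells 11 rose and 0 fell, with a median of 0.15, whereas with the control hairpin 5 rose and 3 fell, with a median of 0.02, and with the Etv1 hairpin 8 rose and 0 fell, with a median of 0.16. With the Etv1 hairpin against the control, 13, 11 and 15 of the 18 were higher in the 3 conditions and 2, 1 and 0 lower, among them Pdia6, a disulfide isomerase, at 1.18 ± 0.12 without stimulus and 1.51 ± 0.12 with PGE2. The shares of all genes called, given above for each comparison, apply to these lists too.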

How the data were processed

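The authors deposited 1 table of raw read counts per Ensembl gene for each of 30 libraries (TruSeq stranded mRNA kit, per the labels). Per the submitters' processing notes the deposited counts came from STAR, featureCounts and GRCm38, with no versions. No output of the DESeq2 and deepTools steps listed there was analysed here. How strand entered the counting is not given in the sources used here, which leaves genes that overlap, or have an antisense partner, uncertain. Of the IDs, 97.52% matched a GENCODE M21 symbol, and the rest held 0.153% of reads.

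The wild type (12 libraries) and shRNA (18 libraries) experiments were fitted apart, each with all its groups, with edgeR 4.0.16 in R 4.3.3 (TMM, filterByExpr, robust quasi-likelihood fit). This kept 12824 and 12382 genes, over all of which p-values were adjusted by the Benjamini-Hochberg method. The standard error is the absolute log2 fold change over the square root of F. CPM used TMM library sizes. A count of 3 in a library equals 0.220 to 0.292 CPM in wild type and 0.108 to 0.403 CPM in shRNA libraries, and such limits cover counting error only. Replicates differed by more than sampling noise (lowest chi-square per degree of freedom 1.23, p = 3.06e-71), and each library lay nearest its own group. Library 2 of each control hairpin group stood furthest from its replicates, with 12.1 to 20.3 per degree of freedom. The other control hairpin pairs stood at 2.81 to 4.61, and pairs of the other groups at no more than 6.69. Scripts were tested on simulated data.

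The members, the lists and the rule for named genes were chosen with earlier results of these data known. For each experiment, values in each library are given for genes called with at least a 2-fold change in some contrast of that experiment. At most 4 genes of a related list, those with the smallest adjusted p, could be named per contrast. Alternatives were RLE and upper-quartile factors, no filter, DESeq2 1.42.0, a fit of the compared groups alone, a replicate block and leaving out each library. The marker lists were those of macrophages, neutrophils, dendritic cells, lymphocytes, stromal or endothelial cells, mast cells or basophils, and erythroid cells or megakaryocytes.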

Additional observations from a re-analysis of the deposited data

Results flagged for a closer look

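The effect of PGE2 on top of IL-4 differed between the control and the Etv1 hairpin for 6 genes of the module. This is by the test of that difference itself, in the fit without a replicate block. As the log2 fold change with the Etv1 hairpin minus that with the control hairpin, the values were 0.87 ± 0.21 for Phgdh (adjusted p = 0.009), 0.66 ± 0.12 for Ddit3 (adjusted p = 0.00105) and 0.64 ± 0.15 for Mthfd2 (adjusted p = 0.00801), which stayed called under each alternative run. They were 0.60 ± 0.19 for Psph (adjusted p = 0.0431), 0.34 ± 0.10 for Cebpg (adjusted p = 0.042) and -0.36 ± 0.12 for Psat1 (adjusted p = 0.0475), which lost the call under several. The serine synthesis enzymes Phgdh and Psph fell less with the Etv1 hairpin, whereas Psat1, between them in the pathway, fell with the Etv1 hairpin and stood at 0.06 ± 0.08 with the control hairpin. The effect of IL-4 differed between the hairpins for the tRNA export receptor Xpot, by 0.31 ± 0.08 (adjusted p = 0.0215), with -0.32 ± 0.05 for the control and -0.01 ± 0.05 for the Etv1 hairpin. This call was lost with no filter on low counts and in 6 of 12 fits that left out 1 library. Xpot was 1 of 37 genes, against 2.71% of all genes with a higher value. All 3 hairpin conditions also differed in macrophage marker levels, whose part in these differences was not tested.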

How the results depend on the processing

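Of 260 called gene results, all kept their direction under each alternative run. Calls were lost in 9 cases with DESeq2, 3 with RLE factors, 3 with upper-quartile factors, 6 with no filter, 9 with only the compared groups fitted, and 108 of 1602 fits that left out 1 library. The counts of called genes in the 11 comparisons of groups stayed within 1.5 times except for small counts. The 1 gene lowered by valinomycin (Wars) became 2 with upper-quartile factors, 0 with no filter, 0 with DESeq2, 0 with only the compared groups fitted, and 0 to 1 with a library left out. The 3 genes lowered by IL-4 with the Etv1 hairpin became 1 to 3 with a library left out. For the difference of the PGE2 effects, the 5 genes with a higher value became 3 with DESeq2, 3 with only the compared groups fitted, 4 with RLE factors, 6 with upper-quartile factors, 7 with no filter and 3 to 6 with a library left out, and the 1 with a lower value became 0 with upper-quartile factors, 0 with no filter, 0 with DESeq2 and 0 to 2 with a library left out. For the difference of the IL-4 effects, the 1 gene with a higher value became 0 with no filter, 2 with only the compared groups fitted and 0 to 1 with a library left out, and the 0 with a lower value became 1 with no filter, 1 with DESeq2 and 0 to 2 with a library left out. The cause was not tested. Upper-quartile factors moved the share of higher among all called genes from 50.6 to 40.4% for valinomycin and from 60.3 to 47.0% for IL-4 with the Etv1 hairpin.

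Libraries with the same replicate number did not pair fully by the rule used. Their deviations from group means correlated above 0.1 in 5 of 18 wild type and 34 of 45 shRNA pairs. For pairs of different number this held in 0 of 36 and 7 of 90. In shRNA libraries the median correlation was 0.15 for the same and -0.09 for different numbers. Of the libraries, 9 of 12 and 17 of 18 correlated best with their own number, which the main fit does not use. With the number as a replicate block no call was lost. For the difference of the PGE2 effects 7 genes then had a higher and 4 a lower value, where the fit without it gave 5 and 1, and for that of the IL-4 effects 2 had a higher and 2 a lower value, where it gave 1 and 0. With the control hairpin, IL-4 then raised 11 and lowered 6 genes, where it gave 8 and 5. Fgf21, Stc2, Cth in wild type and Slc7a3 with shRNA had too few counts to be tested.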
